A study of Mus musculus with 12 samples.

Results

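The carnitine shuttle and its partner enzymes, 7 mouse genes in all, were examined in fasted mouse liver that had or lacked SIRT4, a mitochondrial sirtuin. The members were taken by symbol: Slc22a5, Cpt1a, Cpt1b, Slc25a20, Cpt2, Crat and Crot. Every probe set whose own gene number was that of a member was used, which gave 15 of the 45037 probe sets on the array. All 15 carried the same symbol when the deposited symbol block was joined to them by accession. Cpt1a, Slc22a5 and Crat had 3 probe sets each, Cpt2 and Slc25a20 had 2, and Cpt1b and Crot had 1.

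The arrays compared 6 Sirt4 wild-type with 6 Sirt4-knockout mice, all males of strain 129SV, aged 7 to 8 months, littermates, fasted for 16 h and otherwise untreated, with 1 Affymetrix Mouse Genome 430 2.0 array for each liver. The labels do not say how the knockout allele was made. The study asked how the loss of SIRT4 changes fat catabolism in the liver. Animals are named by genotype and replicate, a number given in the order of the records.

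Long-chain fatty acids cannot cross the inner mitochondrial membrane as acyl-CoA. CPT1 on the outer membrane moves the acyl group to carnitine, the translocase SLC25A20 exchanges acylcarnitine for free carnitine across the inner membrane, and CPT2 on the matrix side rebuilds the acyl-CoA for beta-oxidation. CPT1 is inhibited by malonyl-CoA and is held to be the main control point. Carnitine enters the cell through SLC22A5, also called OCTN2, while CRAT and CROT handle short-chain and medium-chain acyl groups, CROT in peroxisomes. In fasted liver the pathway feeds fat to oxidation and ketone body synthesis, and several of its genes are known targets of the nuclear receptor PPARalpha.

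The promoters are shown for 3 members: Slc22a5 and Slc25a20, the carriers of carnitine and acylcarnitine, and Cpt1a, the gatekeeping enzyme. RefSeq sequences on GRCm38.p6 were matched for 5 of the 7 members, and none was matched for Cpt1b and Crat. Each window runs from 250 bases before to 50 bases after an annotated transcript start and is printed 5′ to 3′ on the gene's strand (Slc22a5 chr11:53891654-53891953, minus strand; Slc25a20 chr9:108661886-108662185, plus strand; Cpt1a chr19:3323051-3323350, plus strand). Capitals mark AGGTCA on either strand, the half-site of which PPARalpha and its partner RXR bind pairs.
Slc22a5: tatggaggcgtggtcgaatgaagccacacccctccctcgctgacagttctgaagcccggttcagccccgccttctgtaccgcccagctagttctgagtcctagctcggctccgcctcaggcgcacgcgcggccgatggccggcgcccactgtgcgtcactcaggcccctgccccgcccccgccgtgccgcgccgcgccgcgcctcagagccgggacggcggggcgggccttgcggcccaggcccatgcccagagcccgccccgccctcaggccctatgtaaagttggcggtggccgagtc
Slc25a20: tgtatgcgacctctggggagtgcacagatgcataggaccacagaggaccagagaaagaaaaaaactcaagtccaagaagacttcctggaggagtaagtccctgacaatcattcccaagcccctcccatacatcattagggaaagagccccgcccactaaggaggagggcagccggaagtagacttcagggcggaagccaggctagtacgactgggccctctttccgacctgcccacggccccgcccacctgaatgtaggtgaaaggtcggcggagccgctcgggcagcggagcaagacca
Cpt1a: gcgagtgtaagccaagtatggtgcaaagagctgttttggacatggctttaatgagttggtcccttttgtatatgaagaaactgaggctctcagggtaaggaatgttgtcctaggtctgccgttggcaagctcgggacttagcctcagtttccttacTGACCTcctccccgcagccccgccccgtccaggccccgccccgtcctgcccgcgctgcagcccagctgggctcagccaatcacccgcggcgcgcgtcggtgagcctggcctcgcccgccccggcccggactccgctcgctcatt

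The 300 bases of Cpt1a held the half-site once, on the opposite strand, where it reads TGACCT, from position -94 to -89 counted from the transcript start. The windows of Slc22a5, Slc25a20, Cpt2 and Crot did not hold these letters. Of all 32851 promoters of the same length, 16.3% held at least 1 half-site. The paired forms AGGTCANAGGTCA and AGGNCANAGGNCA, which contain the half-site or a near form of it, were found in none of the 5 windows and in 0.0396% and 0.381% of all promoters. These are matches of letters in a short window, and no binding was measured. G and C made up 72.7% of the Slc22a5 window, 62.3% of that of Cpt1a and 58.0% of that of Slc25a20, against a median of 52.7% over all promoters.

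No probe set of the 7 genes differed between the genotypes past the threshold, an adjusted p of 0.05 over all 45037 probe sets in limma. The adjusted p-values of the 15 ran from 0.831 to 0.986. The threshold was passed by 0 probe sets of the whole array (0%), and by 2651 (5.89%) at an unadjusted p under 0.05. Among the 15, an unadjusted p under 0.05 was reached by 2 probe sets on the higher side and 0 on the lower side, where the background was 2.98% and 2.9%. For the 13 member probe sets with a mean intensity of at least 100, the same 2 were higher and 0 lower, against a background of 5.17% and 2.42%. Both belonged to Slc22a5. The groups overlapped for all 15 probe sets, while 0.229% of all probe sets did not overlap. The median log2 fold change, knockout minus wild type, was 0.075 over the 15 probe sets, with 11 above 0, and 0.00027 over all probe sets, of which 50.2% were above 0. Among all probe sets with a mean intensity of at least 100 the median was 0.015, with 58.5% above 0. Probe sets of 1 gene report on the same transcripts, so the 15 are not independent.

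**Figure D1:**
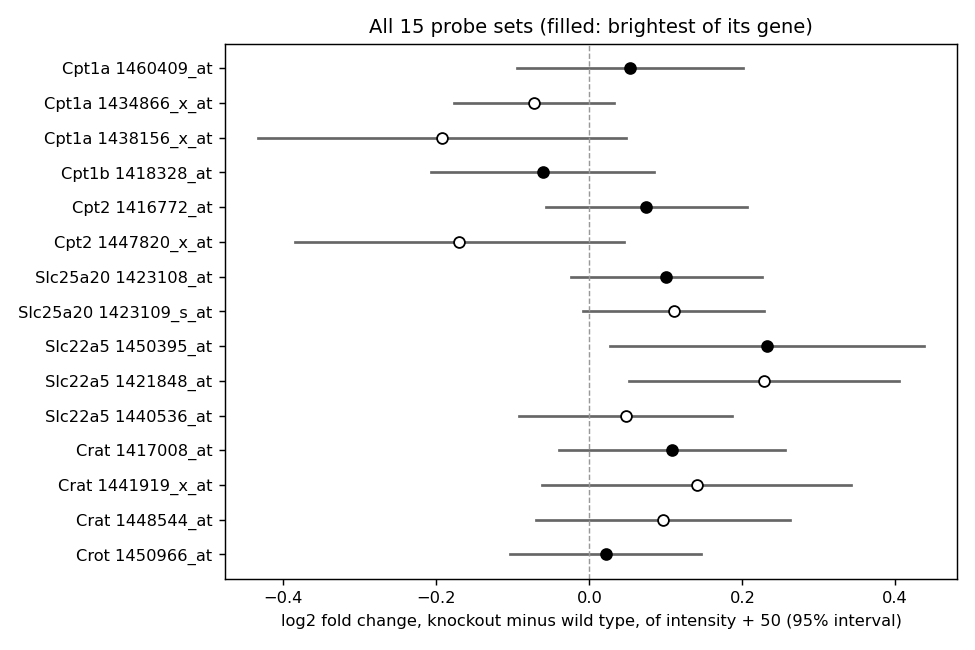
Log2 fold change of intensity + 50 (knockout minus wild type, dots) with its 95% interval (lines) for the 15 probe sets, 6 animals per group; filled dots mark the brightest probe set of each gene. The intervals of 2 Slc22a5 probe sets lie above 0, and the other 13 include it.

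As a check of the genotype labels, the Sirt4 probe set ran from 153.3 to 186.99 in wild-type animals and from 81 to 120.68 in knockouts, without overlap (-0.53 on the log2 scale, limma adjusted p = 0.0534). Array medians lay between 36.6 and 38.69, and correlations between arrays ran from 0.988 to 0.994. The 8 hepatocyte markers, among them Alb, Ttr and Cps1, had group means from 7007 to 19064. Wild type replicates 5 and 6 stood apart in acute phase genes, with list means of 1.83 and 1.66 (log2, centred per gene), and so did knockout replicate 4, at 1.03, against -0.92 to 0.053 for the other 9 animals. Animal numbers in the titles form a 7200 series, with 2 wild types and 5 knockouts, and a 7500 series, with 4 wild types and 1 knockout. Their meaning is not stated. The titles of knockout replicates 1, 4 and 6 carry an added 2 after the number, of unstated meaning, and no wild-type title does. P-values set the difference between the genotypes against the spread between these animals. The reported fit has no term for the title series, so a difference between the series would enter the difference between the genotypes.

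Slc22a5, which brings carnitine into the cell, had the largest log2 fold change among the brightest probe sets of the 7 genes. At its brightest probe set (1450395_at) the lowest, median and highest intensities were 592, 791 and 881 in wild type and 680, 934 and 976 in knockout. Of the 6 knockout animals, 4 lay above every wild type, and the 2 lowest values belonged to wild type replicates 6 and 5 (592.18 and 639.17), ahead of knockout replicate 5 (679.93). Group means were 750 ± 111 and 888 ± 110 (SD, n = 6 each). Knockout exceeded wild type by a log2 fold change of 0.23 (95% interval 0.028 to 0.44), with limma adjusted p = 0.837. An exact permutation test, two-sided like all tests here, gave p = 0.0758.

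A second probe set of Slc22a5 (1421848_at), also designed on a full-length mRNA, gave nearly the same difference. Wild-type values had a lowest, median and highest of 277, 359 and 414, and knockout values of 365, 411 and 468. All 6 knockout animals were above the wild-type median, and 3 wild types were below every knockout. This was a log2 fold change of 0.23 (95% interval 0.051 to 0.40), with limma adjusted p = 0.831 and an exact permutation p of 0.0368. In the authors' deposited table the signed fold change of both probe sets was 1.19.

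The third Slc22a5 probe set (1440536_at) was designed on an expressed sequence tag whose description names no gene. It ran from 91.7 to 121 in wild type and from 94.5 to 133 in knockout, so that the groups lay almost wholly on top of each other. Its log2 fold change was 0.047 (95% interval -0.092 to 0.19). The brightest probe set's fold change exceeded that of the third by 0.19 (95% interval -0.088 to 0.46, limma adjusted p = 0.933), and that of the second by 0.0045 (-0.12 to 0.13).

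The size of the Slc22a5 difference depended on which animals were kept. Without wild type replicates 5 and 6, which had high acute phase genes, and with knockout replicate 4, which also had them, kept in, the log2 fold changes of its 2 brighter probe sets were 0.11 and 0.11 (limma adjusted p = 0.978 and 0.975). Leaving out knockout replicate 4 alone gave 0.22 and 0.23. The log2 fold changes were larger without knockout replicate 5 (0.30 and 0.26) and without wild type replicate 3 (0.28 and 0.28). Within the 7200 series they were 0.16 and 0.14, within the 7500 series, which has 1 knockout animal, 0.23 and 0.18, and with the series as a fixed effect 0.18 and 0.15. An unadjusted p under 0.05 was lost for both without wild type replicates 5 and 6 and within the 7200 series. It was also lost for both with the series as a fixed effect. For the 7500 series, with 1 knockout animal, only the fold changes are given. Without knockout replicate 4, 1 member probe set kept it on the higher side.

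**Figure D2:**
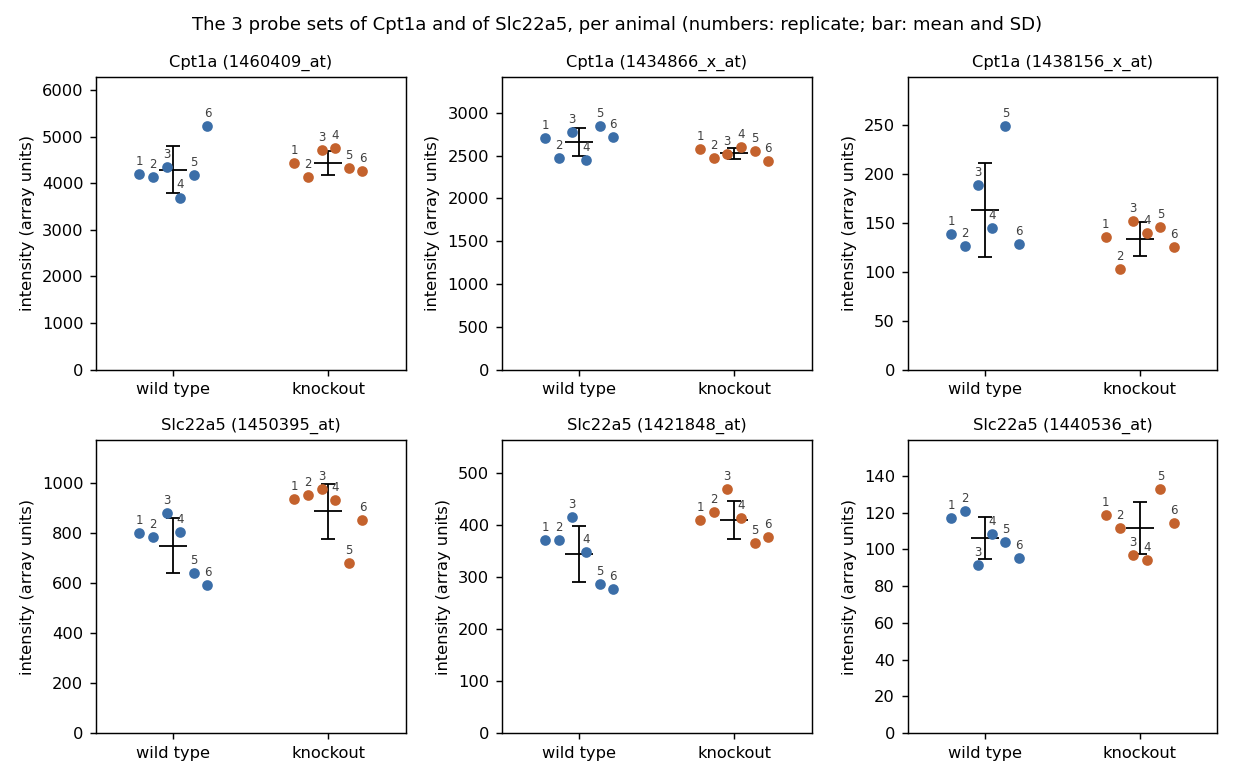
Intensity per animal (dots, numbered by replicate) with mean and SD (bars) for the 3 probe sets of Cpt1a (top) and of Slc22a5 (bottom), 6 wild-type and 6 knockout animals; each vertical axis starts at 0. The brighter Slc22a5 probe sets lie higher in most knockouts (wild-type means 750 and 344, knockout means 888 and 410), while the Cpt1a probe sets differ in direction.

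Cpt1a, the liver isoform of the outer membrane enzyme, had probe sets whose differences did not share a direction. At the brightest (1460409_at) the lowest, median and highest intensities were 3697, 4183 and 5237 in wild type and 4133, 4393 and 4762 in knockout. Wild type held both extremes, replicate 6 at the top and replicate 4 at the bottom, with all 6 knockouts between them. The log2 fold change was 0.054 (95% interval -0.094 to 0.20, limma adjusted p = 0.961). It was 0.012 without wild type replicate 4, 0.11 without wild type replicate 6 and 0.034 without knockout replicate 4.

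The Cpt1a probe set 1434866_x_at pointed down. Its wild-type values ran from 2444 to 2847 with a median of 2711, and its knockout values from 2431 to 2601 with a median of 2536. All 6 knockouts were below the wild-type median, and 4 wild types were above every knockout. Its log2 fold change was -0.072 (95% interval -0.18 to 0.032), with limma adjusted p = 0.902 and an exact permutation p of 0.0909. The spread was narrow in knockout, with a coefficient of variation of 2.55% against 6.20% in wild type.

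The dimmest Cpt1a probe set (1438156_x_at) had a log2 fold change of -0.19 (95% interval -0.43 to 0.048). It ran from 126 to 249 in wild type and from 102 to 152 in knockout, and wild type replicate 5 alone held the value of 249. Leaving that animal out brought the log2 fold change to -0.088. Both of these probe sets carry the suffix x, which Affymetrix gives where some probes can match other transcripts. The brightest probe set's fold change was above theirs by 0.13 (95% interval -0.020 to 0.27) and by 0.25 (-0.038 to 0.53), each with a limma adjusted p = 0.921.

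Cpt1b, the isoform of muscle and brown fat, was measured by 1 probe set (1418328_at). Its lowest, median and highest intensities were 141, 164 and 197 in wild type and 140, 157 and 180 in knockout. Both groups covered almost the same range. For Cpt1b the log2 fold change was -0.061 (95% interval -0.21 to 0.085, limma adjusted p = 0.951). It was -0.022 without wild type replicate 1, -0.097 without wild type replicate 6, and -0.039 and -0.037 without knockout replicates 2 and 4. Markers of muscle and fat that could travel with it were dim. The 8 skeletal muscle markers had group means from 9.08 to 61.7, with Ckm at 61.7 and 50.1 and Acta1 at 44.1 and 41.1 in wild type and knockout, and Pvalb was the 1 marker at an unadjusted p under 0.05 (36.5 and 50.4). Their summed intensity ran from 219 to 275 in wild type and from 194 to 259 in knockout, with none of the 8 at 0 in group mean. The 7 adipocyte markers had group means from 3.65 to 90.5, with Ucp1 at 6.57 and 7.12, and sums of 166 to 230 and 156 to 193. The part of these markers in the Cpt1b signal was not tested. Of all genes, 3.25% were higher at an unadjusted p under 0.05.

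Slc25a20, the translocase, was slightly brighter in most knockout animals at both of its probe sets. At 1423108_at the lowest, median and highest intensities were 2862, 3212 and 3652 in wild type and 3247, 3445 and 3733 in knockout. All 6 knockouts were above the wild-type median, and 4 wild types were below every knockout. The log2 fold change was 0.10 (95% interval -0.024 to 0.23, limma adjusted p = 0.882). It fell to 0.065 without wild type replicate 6 and to 0.055 without wild type replicates 5 and 6.

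At the other Slc25a20 probe set (1423109_s_at) wild type ran from 1822 to 2227 and knockout from 2055 to 2266, with the same count of 4 wild types below every knockout. Here the log2 fold change was 0.11 (95% interval -0.0078 to 0.23), with limma adjusted p = 0.861 and an exact permutation p of 0.0671, and it was 0.066 without wild type replicates 5 and 6. The probe sets differed from each other by -0.0093 (95% interval -0.12 to 0.10). In the authors' deposited table their signed fold changes were 1.07 and 1.08.

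Cpt2, the matrix-side enzyme, read a lowest, median and highest of 2131, 2449 and 2732 in wild type and of 2384, 2531 and 2726 in knockout at 1416772_at. Wild type replicates 5 and 6 were the 2 lowest of the 12 animals, at 2130.7 and 2211.42, and wild type replicate 3 was the highest. The log2 fold change was 0.075 (95% interval -0.057 to 0.21, limma adjusted p = 0.926), and it was 0.040 without wild type replicate 5 and 0.00034 without wild type replicates 5 and 6. A second probe set of Cpt2 (1447820_x_at) ran from 16.0 to 43.1 in wild type and from 3.85 to 35.6 in knockout, below the array medians in most animals. It was designed on an expressed sequence tag whose description names no gene, and its log2 fold change of -0.17 (95% interval -0.39 to 0.046) understates a change at so low a level. Adding 16 in place of 50 gave -0.32, and using no offset but a floor of 10 gave -0.44, larger in size than the Slc22a5 values at those settings. With 50 added it was -0.089 without knockout replicate 4. The authors' deposited table lists a signed fold change of -1.39 for it. The brighter Cpt2 probe set exceeded it by 0.24 (95% interval 0.027 to 0.46, limma adjusted p = 0.908).

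That was the 1 difference at an unadjusted p under 0.05 among 8 between probe sets of the same member gene. Over all 18381 such differences on the array 0 passed the adjusted threshold in limma (0%) and 5.41% had an unadjusted p under 0.05.

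Crat, carnitine acetyltransferase, read a lowest, median and highest of 601, 632 and 754 in wild type and of 631, 695 and 828 in knockout at 1417008_at. Knockout replicate 3 was the highest, and 5 of the 6 knockouts were above the wild-type median. For Crat the log2 fold change was 0.11 (95% interval -0.039 to 0.26, limma adjusted p = 0.899), and 0.065 without knockout replicate 3. Its dimmer probe sets gave 0.14 (1441919_x_at, 108 to 193 in wild type and 134 to 199 in knockout) and 0.096 (1448544_at, 41.5 to 84.0 and 63.9 to 83.3). The probe set 1441919_x_at was designed on an expressed sequence tag whose description names no gene, and it carries the suffix x. The value of 0.14 was 0.083 without wild type replicate 3. The value of 0.096 was 0.029 without wild type replicate 6 and turned to -0.0097 without wild type replicates 5 and 6. All 3 Crat probe sets thus had positive log2 fold changes over the 12 animals, with intervals that include 0.

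Crot, carnitine octanoyltransferase, had the smallest log2 fold change of the 7 genes. Its probe set (1450966_at) read a lowest, median and highest of 7194, 7984 and 8936 in wild type and of 7735, 7981 and 9108 in knockout. The medians were nearly equal, and knockout replicate 1 stood above all other animals. The log2 fold change was 0.021 (95% interval -0.10 to 0.15, limma adjusted p = 0.986), and leaving out single animals gave -0.012 (without knockout replicate 1) to 0.053 (without wild type replicate 5).

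**Figure D3:**
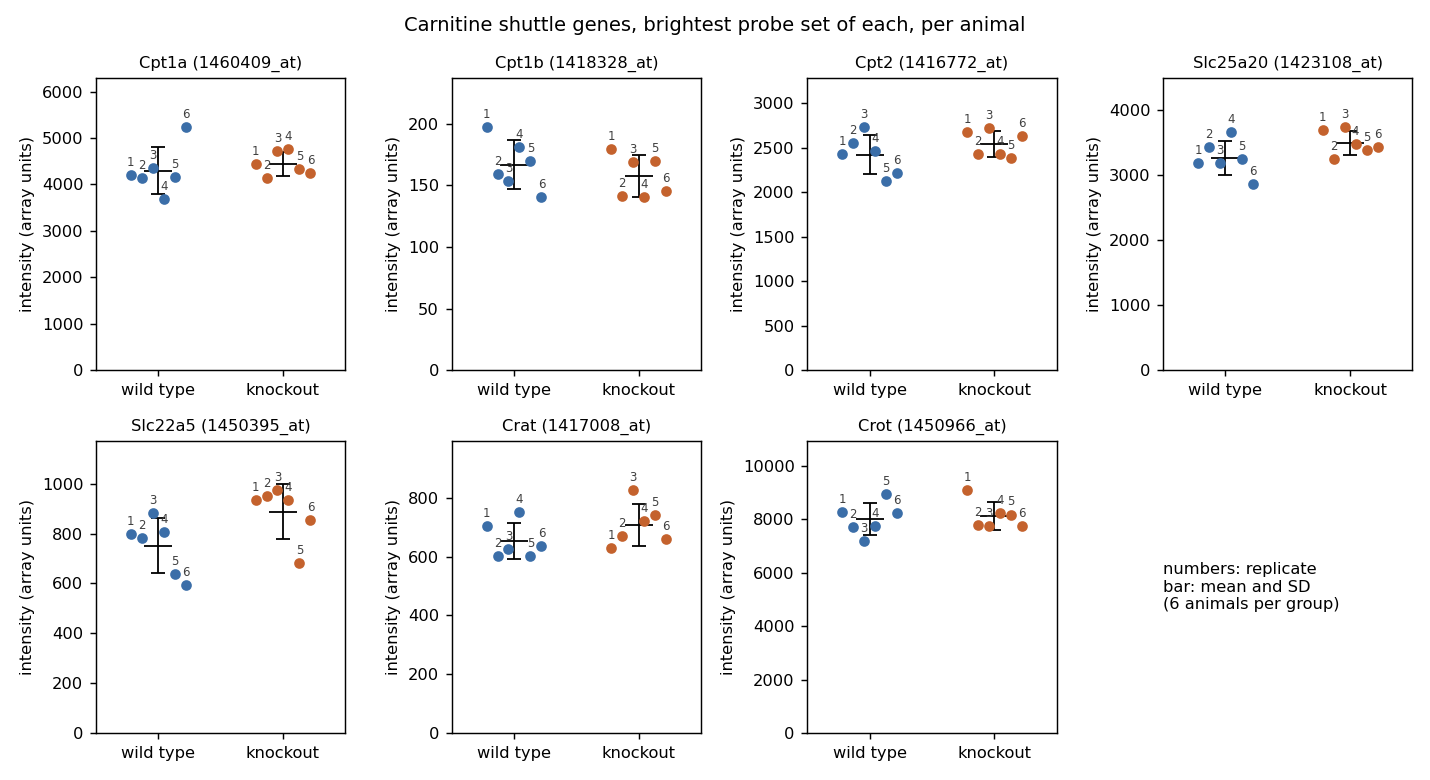
Intensity per animal (dots, numbered by replicate) with mean and SD (bars) for the brightest probe set of each of the 7 genes, 6 wild-type and 6 knockout animals; each vertical axis starts at 0 and has its own scale. The groups overlap in every panel, and the Slc22a5 panel shows the largest shift, from a mean of 750 to 888.

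Taking the brightest probe set of each gene, 6 of the 7 log2 fold changes were above 0, the exception being Cpt1b. So were 50.4% of all genes, and 58.5% of all probe sets with a mean intensity of at least 100. The 95% intervals bound the difference. Apart from Slc22a5, whose interval reached a fold of 1.35, no upper bound of the brightest probe sets exceeded a fold of 1.19 (Crat), and no lower bound was below 0.866 (Cpt1b). For Cpt1a the bounds were folds of 0.937 and 1.15, for Cpt2 0.961 and 1.15, and for Slc25a20 0.984 and 1.17. Those are bounds of the brightest probe sets only. Other probe sets of these genes reached further, down to 0.741 at Cpt1a 1438156_x_at and up to 1.27 at Crat 1441919_x_at. All are folds of intensity + 50. The coefficient of variation between animals was lower in knockout for 6 of these 7 probe sets and for 12 of all 15, with no test made. The share over all probe sets of the array was not counted, so these counts are not read as a trait of the shuttle genes.

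Single animals did not keep 1 place across the genes. Knockout replicate 3 was the highest of the 12 for Slc25a20, Slc22a5 and Crat and the second highest for Cpt2, yet the third lowest for Crot. Wild type replicate 6 was the lowest for Slc25a20 and Slc22a5 and the highest for Cpt1a. Wild type replicate 3 was the highest for Cpt2 and the lowest for Crot. The animal mean over the 7 genes (log2, centred per gene) ran from -0.11 to 0.019 in wild type and from -0.020 to 0.13 in knockout, with wild type replicates 6 and 5 at the bottom.

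Covariation between animals was measured for the 21 pairs of genes on values centred within genotype. Pearson's r ran from -0.57 to 0.76, with 12 pairs above 0, and 0 pairs passed the Benjamini-Hochberg threshold over the 21 (1 pair had an unadjusted permutation p under 0.05). The pair was Cpt2 and Slc22a5, the matrix enzyme and the carnitine importer, with r = 0.76 (permutation p = 0.00621, adjusted p = 0.130) and Spearman's rho = 0.70 (permutation p = 0.0232, adjusted p = 0.488) over 12 animals. Leaving out the 2 animals farthest from the median of Cpt2 gave r = 0.68, and leaving out wild type replicates 5 and 6 gave 0.54. With values centred within genotype and title series r was 0.78 (permutation p = 0.0356, adjusted p = 0.609).

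Cpt1a and Slc25a20, neighbours in the shuttle, had r = -0.55 (permutation p = 0.124, adjusted p = 0.521; rho = -0.20, permutation p = 0.550, adjusted p = 0.839). Without the 2 animals farthest from the median of Cpt1a, r was 0.49, so the sign rests on those animals. Within the 6 wild types r was -0.95 and within the 6 knockouts 0.70, and the difference was not tested. Cpt1a had r below 0 with 5 of the 6 other genes over all animals, and with 1 of the 6 without its 2 farthest animals. For Cpt2 and Crot r was -0.57 (permutation p = 0.0746, adjusted p = 0.521; rho = -0.61, permutation p = 0.0466, adjusted p = 0.489), and it was -0.13 without the 2 animals farthest from the median of Cpt2. Within the 6 wild types it was -0.93 and within the 6 knockouts 0.086. For 8 of the 21 pairs r changed sign when the 2 farthest animals were left out.

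**Figure D4:**
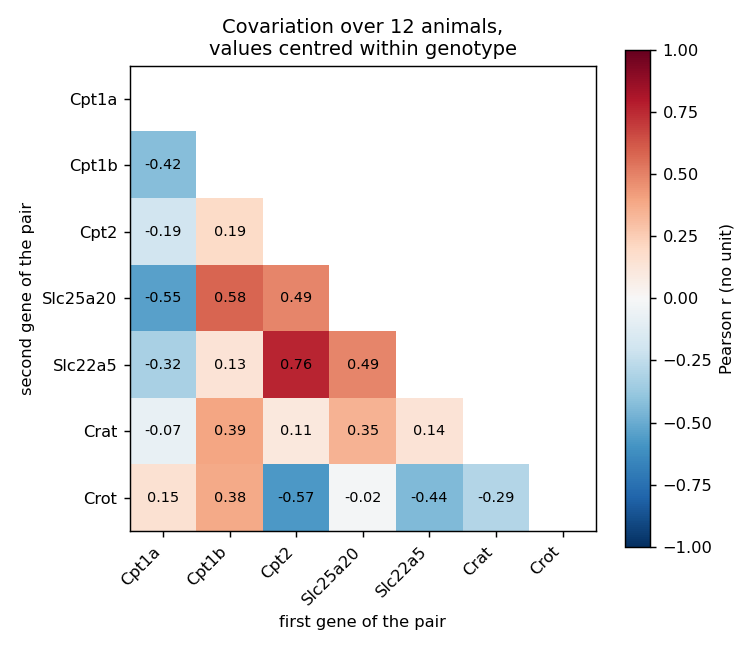
Pearson's r (colour and printed value) between the brightest probe sets of each pair of the 7 genes, over 12 animals, with log2 values centred within genotype. The highest value is 0.76 for Cpt2 and Slc22a5 and the lowest is -0.57 for Cpt2 and Crot, and 0 of the 21 pairs passed the adjusted threshold.

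The genes most like each member between animals were picked as the 2 with the highest r of 8141 genes with a mean intensity of at least 100, so these values describe a search and carry no test. For Cpt1a they were Tmem120a (r = 0.96, rho = 0.90) and Vamp2 (r = 0.94). For Slc22a5 they were Pbxip1 (r = 0.92) and Chst15 (r = 0.90), and for Cpt2 Nfib (r = 0.89) and A1cf (r = 0.89). Slc25a20 went with Iba57 (r = 0.89) and Golga7 (r = 0.87), and Crot with Pou6f1 (r = 0.89) and Pkp2 (r = 0.86). For Cpt1b the genes were Wdr48 (r = 0.87) and Fam89a (r = 0.86), and for Crat Cox8c (r = 0.82) and Gm9734 (r = 0.78). None of the 7 members was among the 2 nearest genes of another.

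Genes that supply carnitine or carry related substrates gave no call, with 0 of 8 at an unadjusted p under 0.05. Over all genes, at 1 probe set each, 3.25% were higher and 3.24% lower at that level, and 0% passed the adjusted threshold. Bbox1, which makes carnitine from gamma-butyrobetaine, had means of 3158 ± 192 and 3342 ± 190 in wild types and knockouts (log2 fold change 0.081). The median of the 8 was 0.033, with 5 above 0. Cpt1c, the brain isoform of CPT1, read 7.80 ± 3.40 and 9.22 ± 4.23, far below the array medians. With Slc22a4, Slc22a21 and Slc16a9 it made up 4 of the 8 genes with a mean intensity under 100. There the offset understates a change, so the lack of a call says little about these 4.

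Among 12 genes that supply acyl-CoA or control CPT1, 2 were higher at an unadjusted p under 0.05 and 0 were lower. Acsl1, the main long-chain acyl-CoA synthetase of liver, read 11925 ± 864 and 13080 ± 420 (log2 fold change 0.14, limma adjusted p = 0.831), with every knockout above every wild type, as for 0.142% of all probe sets. Ppara read 998 ± 130 and 1199 ± 94.5 (0.26, limma adjusted p = 0.821). The genes that set malonyl-CoA did not reach this level. Acaca read 15.3 ± 5.62 and 10.9 ± 3.51, below the array medians, where the offset understates a change. Acacb, the acetyl-CoA carboxylase of the mitochondrial surface, was dim (76.5 ± 21.9 and 89.3 ± 26.8) and gave 0.14 (95% interval -0.12 to 0.39). Mlycd, which degrades malonyl-CoA, gave -0.020 (-0.13 to 0.087). Ppargc1a gave -0.097.

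Both lists of fatty acid oxidation genes had mostly positive log2 fold changes. For 15 mitochondrial beta-oxidation enzymes the median was 0.052, with 13 above 0 and 0 at an unadjusted p under 0.05 in either direction. For 13 genes of peroxisomal oxidation the median was 0.11, with 12 above 0 and 4 higher at an unadjusted p under 0.05. The 4 were the thioesterase Acot3 (620 ± 292 in wild type, 1274 ± 266 in knockout, log2 fold change 1.06), Pex11a, which acts in peroxisome division (0.46), the thioesterase Acot4 (0.28) and the half-transporter Abcd3 (0.11), and their limma adjusted p-values were 0.584 to 0.834. The 7 shuttle genes at 1 probe set each had a median of 0.075, between these lists, and all genes a median of 0.00081. Among all probe sets with a mean intensity of at least 100 the median was 0.015, with 58.5% above 0. Of those, 5.17% were higher at an unadjusted p under 0.05. Whether the lists differ from each other was not tested.

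Markers of other liver cells are given beside these values, and 0 of them passed the adjusted threshold. For comparison, 3.24% of all genes were lower at an unadjusted p under 0.05, and 50.4% had values above 0. All 11 macrophage markers had negative values (median -0.32 on the log2 scale), with 10 at an unadjusted p under 0.05, among them Lyz2 (-0.58), Marco (-0.69), C1qb (-0.40) and Cd5l (-0.47). Their summed intensity ran from 3967 to 7554 in wild type and from 3360 to 5851 in knockout. Of 7 neutrophil markers 6 were below 0 (median -0.13; Ltf -0.21 was the 1 at an unadjusted p under 0.05), with sums of 320 to 1061 and 313 to 437. All 8 acute phase genes, which hepatocytes make in inflammation, were below 0 (median -0.69; Saa3 -0.61 was the 1 at that level), with sums of 20251 to 62446 and 22024 to 42861. The highest acute phase sums were those of wild type replicates 5 and 6 (62446 and 53155) and knockout replicate 4 (42861). Group medians of these sums were closer, at 25533 in wild type and 22864 in knockout. For Lcn2 the group medians were 169 and 164, and for Hp 10573 and 10937. Hepatocyte markers had a median of 0.020 and sums of 117084 to 122161 and 116486 to 123533. None of these genes was at 0 in group mean. In whole liver, fewer cells of a type and less RNA per cell cannot be told apart, and the part of these markers in the values of the shuttle genes was not tested.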

How the data were processed

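The authors deposited linear-scale intensities, from 1 Affymetrix array per liver, and the submitters' processing notes name RMA, with no version given. Over all arrays 689 intensities are exactly 0, and whether RMA alone gave the deposited values was not tested. Both deposited tables list identical intensities for all 45037 probe sets. The fold-change table adds the authors' signed fold change and t statistic, which are scores, and unadjusted p-values. Its symbol block is out of row order (1 row matched as placed), so genes came from each row's own gene number, named through RefSeq (GRCm38.p6). That named 36239 probe sets and 17858 genes. The arrays' own genome build is not stated.

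Log2(intensity + 50) was fitted for all probe sets with limma 3.58.1 in R 4.3.3, with Benjamini-Hochberg adjustment over all of them. The offset understates changes of dim probe sets. Each member probe set was also tested by exact permutation of the 12 animals (924 arrangements, smallest p 0.00216). The design assumed this scale and it was kept. Differences between probe sets of a gene were fitted over all genes. Correlations used 100000 permutations within genotype. The fits were tested on simulated data. Alternatives covered offset, normalization, title series, variance model, dim probe sets and single animals. For other genes the probe set with the highest mean was used. Named genes were all members, up to 4 genes a list at an unadjusted p under 0.05, 6 fixed genes and the 2 nearest genes of each member. The members and lists were chosen with earlier results of these data known. The number of arrays limits the precision: standard errors of the 15 log2 fold changes were 0.049 to 0.11.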

Additional observations from a re-analysis of the deposited data

Results flagged for a closer look

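Crot in knockout replicate 1 (probe set 1450966_at) read 9107.81, far above the other 5 knockouts, which ran from 7735 to 8233. Its gap to the nearest animal was 0.638 of the group's range, above Dixon's critical value for 6 animals. Without this animal the log2 fold change of Crot went from 0.021 to -0.012. Of 30 groups looked at (15 probe sets in 2 genotypes) this was the 1 that stood out, and chance alone gives about 1 in 20.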

How the results depend on the processing

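No paired analysis was possible because replicate numbers were given in record order and the labels do not say which animals share a litter. In all 23 alternatives 0 of the member probe sets passed the adjusted threshold in limma (smallest adjusted p 0.624), against 2 at an unadjusted p under 0.05 in the reported fit. That count of 2 on the higher side was 1 with a floor of 10. With 1 probe set per gene it was 1, the most that Slc22a5 can give there. It was 0 in a fit with a term for the title series, within the 7200 series and without both wild type replicates 5 and 6. No such count is given for the 7500 series, because of its lone knockout. Leaving out single animals gave 1 to 5 on the higher side (5 without wild type replicate 4, and 1 where wild type 5 or 6, or any of knockouts 1 to 4, was left out) and 0 to 1 on the lower side (1 without wild type replicate 6 or knockout replicate 6). The median over the member probe sets stayed above 0, from 0.036 to 0.087. The number of genes at an unadjusted p under 0.05 over the 4 lists of neighbouring pathways, 6 of 48, was 11 with a floor of 10, 12 with a variance trend, and 3 with a term for the title series, within the 7200 series and without wild type replicates 5 and 6. These alternatives for the 4 lists, those for the covariation and the 7500 series were chosen after seeing the data. The 0 pairs of genes and the 0 differences between probe sets that passed stayed at 0 in the 5 alternatives run for each (smallest adjusted p 0.111 and 0.915). Of 135 values of single probe sets under 9 alternatives, 128 kept their direction. In the 7200 series only, Cpt1a 1438156_x_at turned to 0.014, Slc22a5 1440536_at to -0.074 and Crat 1448544_at to -0.048. In the 7500 series only, whose lone knockout is assumed to vary like the wild types, Cpt1a 1460409_at turned to -0.024, Cpt2 1447820_x_at to 0.053 and Crot to -0.047. Without wild type replicates 5 and 6 Crat 1448544_at turned to -0.0097. Of 180 values without 1 animal, 178 kept their direction, and Crot turned to -0.0089 without wild type replicate 3 and to -0.012 without knockout replicate 1. The cause was not tested. Signal near background limits the 2 member probe sets under an intensity of 100.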
